A study of Mus musculus with 6 samples.

Results

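The genes described here encode collagens and laminins, the chains from which the liver's interstitial matrix and basement membranes are built. They were measured in fetal mouse livers lacking or keeping Hnf4a, the nuclear receptor HNF4 that drives the expression of many hepatocyte genes. Members were taken by name: every probe set whose only platform gene symbol was Col, a number, a and a number, or began with Lama, Lamb or Lamc followed by a digit. This gave 101 probe sets of 52 genes, out of 45037 probe sets and 18193 singly named genes measured. There were 21 probe sets of 11 fibrillar collagen genes, 15 of 8 basement membrane collagen genes, 46 of 23 other collagen genes and 19 of 10 laminin genes. Col28a1 and Col6a6 had no singly named probe set and were not analysed here.

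The study compared 3 null livers, labelled HNF4LoxP/LoxP AlfpCre, with 3 control livers, labelled HNF4LoxP/+ AlfpCre, all fetal livers at E18.5. All 6 carried the AlfpCre transgene, a Cre recombinase under albumin and alpha-fetoprotein control that acts in hepatoblasts and hepatocytes, and the controls carried 1 flanked Hnf4 allele as well. Total RNA of whole liver was labelled with biotin and hybridised to Affymetrix mouse arrays, 1 array per liver. The arrays are named here by group and title number: Null_61, Null_1191 and Null_1195, and Control_8, Control_1192 and Control_1193. No label says how the embryos were related, and the p-values speak only of the spread among these 6 arrays.

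A collagen molecule is a helix of intertwined chains. Fibrillar collagens such as types I, III and V assemble into the banded fibres of the interstitium, whereas type IV forms the sheet of a basement membrane. Laminins are cross-shaped trimers of an alpha, a beta and a gamma chain that form the other sheet of a basement membrane and are bound by integrins and dystroglycan. In liver, fibrillar collagens come mainly from stellate cells, portal fibroblasts and mesothelium. Type IV collagen comes from stellate and endothelial cells as well, and collagen XVIII, the parent protein of endostatin, is made by hepatocytes too.

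Promoters are shown for Col18a1, the member with the smallest adjusted p among those lower in null livers, and for Col4a5, the one with the smallest among those higher. The Col4a6 promoter is added because both Col4 genes start head to head on the X chromosome. Each is the 250 bases upstream of a RefSeq transcription start on GRCm38.p6, written 5′ to 3′ on the gene's strand. Col18a1 has an upstream start (minus strand, chr10:77166531-77166780) and a downstream start (minus strand, chr10:77113706-77113955), 52825 bases apart. The Col4a5 window is chrX:141475169-141475418 on the plus strand, and the Col4a6 window is chrX:141474077-141474326 on the minus strand, with 1343 bases between both starts. Capitals mark matches on either strand to 5 short motifs: CAAAGNNCA, a core of HNF4 sites, AGGTCA, a nuclear receptor half-site, GGGCGG, the GC box, CCAAT, the CCAAT box, and TATAAA, the TATA box.
Col18a1 upstream start: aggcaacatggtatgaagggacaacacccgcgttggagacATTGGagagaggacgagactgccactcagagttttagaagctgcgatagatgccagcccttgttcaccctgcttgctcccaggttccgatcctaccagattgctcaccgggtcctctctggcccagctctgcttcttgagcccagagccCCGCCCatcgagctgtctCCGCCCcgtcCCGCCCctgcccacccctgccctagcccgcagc
Col18a1 downstream start: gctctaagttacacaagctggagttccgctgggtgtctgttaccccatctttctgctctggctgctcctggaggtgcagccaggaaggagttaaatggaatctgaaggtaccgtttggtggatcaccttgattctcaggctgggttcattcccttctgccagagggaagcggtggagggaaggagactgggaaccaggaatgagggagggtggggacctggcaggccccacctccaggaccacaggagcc
Col4a5: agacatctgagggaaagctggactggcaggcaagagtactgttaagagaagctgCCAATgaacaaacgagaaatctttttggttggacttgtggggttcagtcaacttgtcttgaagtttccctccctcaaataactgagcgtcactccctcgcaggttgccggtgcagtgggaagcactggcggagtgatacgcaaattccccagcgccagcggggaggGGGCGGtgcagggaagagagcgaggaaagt
Col4a6: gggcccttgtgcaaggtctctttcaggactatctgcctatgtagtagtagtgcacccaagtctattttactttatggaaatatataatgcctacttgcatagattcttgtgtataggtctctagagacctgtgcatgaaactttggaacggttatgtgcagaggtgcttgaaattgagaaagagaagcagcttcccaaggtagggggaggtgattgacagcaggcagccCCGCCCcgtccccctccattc

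The upstream Col18a1 window held GC boxes and a CCAAT box, the Col4a5 window held a GC box and a CCAAT box, and the Col4a6 window held a GC box. The downstream Col18a1 window held none of the 5 motifs. Over the 42 windows that RefSeq gave for 38 of the member genes, CAAAGNNCA was found in 3 (7.14%), those of Col13a1, Col3a1 and Col6a2, against 5.49% of all 32851 windows of the same length. AGGTCA was in 19% of member windows and 14% of all. The GC box was in 54.8% of member windows and 32.7% of all, CCAAT in 33.3% and 33.8%, and TATAAA in 11.9% and 12.4%. These matches are descriptions of letters. Which start was used in these livers was not measured.

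The measurement is a linear intensity for each probe set on each array, with array medians of 91.8 to 99.6. They were tested as log2(value + 32) with limma, values below 0 being set to 0, and a probe set was called at a Benjamini-Hochberg adjusted p below 0.05 over all 45037. Log2 changes are null minus control on that scale, which understates changes of dim probe sets, and a fold on that scale is given where both group means exceeded the highest array median. The 4 Hnf4a probe sets read 62.2% to 73.7% of control in null livers, and 2 of them were called lower. Where their probes lie relative to the deleted part is not given, so they are no check of the deletion. Null_61 and Control_8 stood apart on the second principal component (22.4% of the variance) and had 18S 5′ control signals of 33.5 and 42.1, against 449 to 616 on the other 4 arrays. Their titles also carry numbers far below those of the other arrays, a split called here the run of title numbers. By sex-linked probe sets, Null_1191, Null_1195 and Control_8 read as female.

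Of the 101 probe sets, 16 were called, 10 higher and 6 lower in null livers. That is 15.8% of the members, against 7.01% of all probe sets. The split differed by direction: 9.9% of the members were called higher, against 1.46% of all, and 5.94% were called lower, close to the 5.55% of all. The groups did not overlap in 29 of the 101 (28.7%), 21 higher and 8 lower in null livers, near the 27.4% over all probe sets (13.6% higher, 13.8% lower). In 58 members a group mean exceeded the highest array median, and of these 7 were called higher and 6 lower, against 11.5% of all such probe sets (1.89% higher, 9.57% lower). The median log2 change of the members was 0.19, and that of all probe sets 0.03. The number called higher was the less stable of the counts, at 2 to 7 when any 1 array was left out, while the number called lower was 5 to 7. Without Control_1192, 2 members were called higher (0.469% of all probe sets), and without Control_8 also 2 (0.648% of all). In the 4 arrays other than Null_61 and Control_8, 4 were called higher and 7 lower, where 2.54% and 6.4% of all probe sets were.

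**Figure D1:**
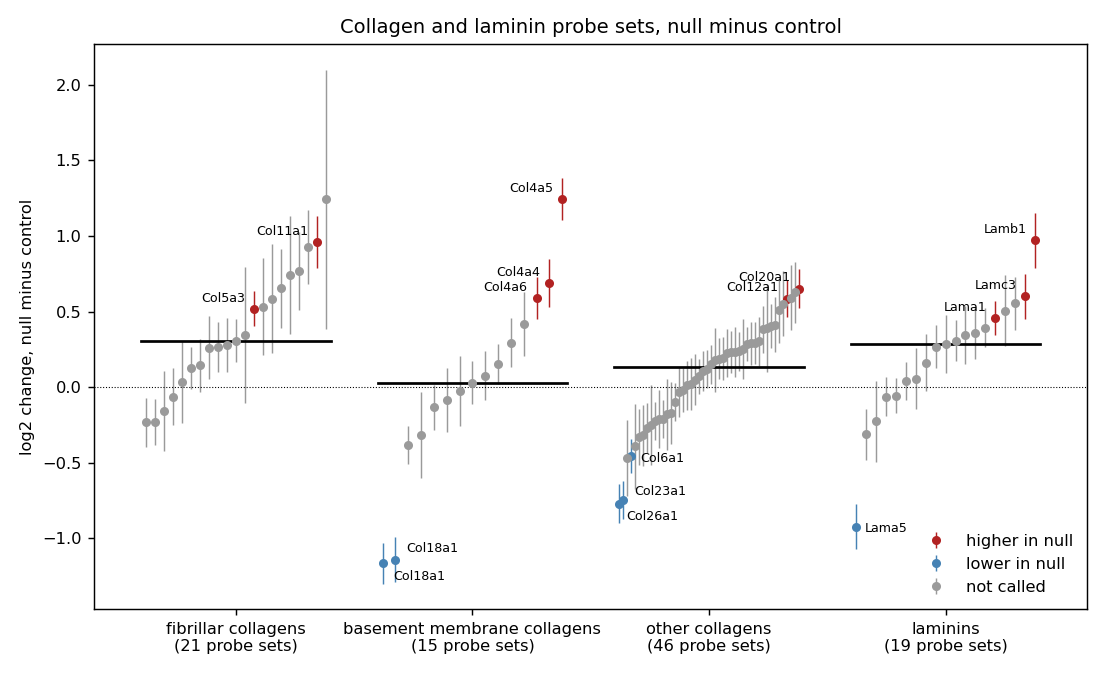
Log2 change, null minus control, of each of the 101 collagen and laminin probe sets by class, with bars of 1 standard error and horizontal lines at the class medians of 0.31, 0.03, 0.14 and 0.28. Red points were called higher in null livers (10), blue points lower (6) and grey points were not called, and the Col4a5 and Col18a1 probe sets lie farthest from 0 among those called.

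In the basement membrane class, 5 of 15 probe sets were called, 3 higher and 2 lower, and the median log2 change was 0.03. That is 33.3% of the class, against 7.01% of all probe sets. By the brightest probe set of each gene, 1 of the 8 genes was called, lower (12.5%, against 9.4% of all genes). Both probe sets of Col18a1 fell. The brighter, 1418237_s_at, read 1643, 1223 and 1701 on Null_61, Null_1191 and Null_1195, against 3619, 3333 and 3317 on Control_8, Control_1192 and Control_1193. Every null liver lay far below every control liver, with means of 1523 ± 261 and 3423 ± 170.1 (SD, n = 3 each). The difference was -1.17 on the log2 scale (SE 0.13, limma adjusted p = 0.000892), which is 2.24-fold lower. The other, 1426955_at, read 1034, 755 and 1122 in null livers, against 2184, 2061 and 2202 in control livers, 2.2-fold lower (limma adjusted p = 0.00172). Among called genes with several probe sets, Col18a1 was the only one of 13 in which all were called. Both of its calls were kept under all 16 alternative ways of processing or choosing arrays (settings), and the 4 arrays without Null_61 and Control_8 gave -1.19 and -1.18.

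Col4a5 encodes a collagen IV chain best known from the basement membranes of kidney, eye and inner ear. Its probe set 1425476_at read 238, 254 and 327 in null livers, against 100.2, 97.8 and 90.3 in control livers. Every null liver lay above every control liver, and the log2 change was 1.24 (SE 0.14, limma adjusted p = 0.000711). That call was kept under all 16 settings. The second Col4a5 probe set, 1425475_at, read 194, 234 and 218 in null livers, against 168, 222 and 185 in control livers. Its groups overlapped and its log2 change was 0.15 (95% interval -0.15 to 0.46, limma adjusted p = 0.559), so the probe sets of this gene did not give the same answer. Where the probes of either lie in the transcript is not known here.

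The probe sets of Col4a6, the head-to-head neighbour of Col4a5, moved in opposite directions. Probe set 1421007_at read 143, 125 and 128 in null livers, against 81.1, 90.4 and 60.8 in control livers, and was called higher (log2 change 0.59, limma adjusted p = 0.0377). Probe set 1421006_at read 165, 138 and 156 in null livers, against 235, 195 and 198 in control livers, and was not called (log2 change -0.38, limma adjusted p = 0.12). The groups did not overlap on either probe set. The call of 1421007_at was lost in 10 of 16 settings, and 1421006_at was called lower when the run of title numbers was a block (limma adjusted p = 0.0493).

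The paired genes Col4a3 and Col4a4 encode the chains that join that of Col4a5 in the mature kidney basement membrane. Of the 3 Col4a4 probe sets, the dim 1445328_at was called higher, with 51.9, 42.8 and 70.4 in null livers and 18.6, 21.3 and 24.9 in control livers (log2 change 0.69, limma adjusted p = 0.034). All of these values lie below the array medians, and the call was lost in 6 of 15 settings. The brightest Col4a4 probe set read 342, 351 and 474 in null livers, against 366, 276 and 288 in control livers, with overlapping groups (limma adjusted p = 0.338). The Col4a3 probe sets had changes of 0.42 and -0.32, and neither was called.

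The main liver chains of collagen IV, from the neighbouring genes Col4a1 and Col4a2, were not called. Col4a1 probe set 1452035_at read 718, 533 and 586 in null livers, against 609, 789.7 and 625 in control livers. Its log2 change was -0.13 (95% interval -0.48 to 0.21), and that of 1426348_at was -0.09 (-0.56 to 0.39). Col4a2 read 473, 217 and 353 in null livers, against 374, 329.7 and 315 in control livers. Null_61 was the highest and Null_1191 the lowest of the 6, and the change was -0.03 (95% interval -0.55 to 0.50). Col15a1, a relative of Col18a1, was dim in both groups, with means of 31 ± 6.61 in null livers and 27.9 ± 7.86 in control livers (SD, n = 3 each).

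**Figure D2:**
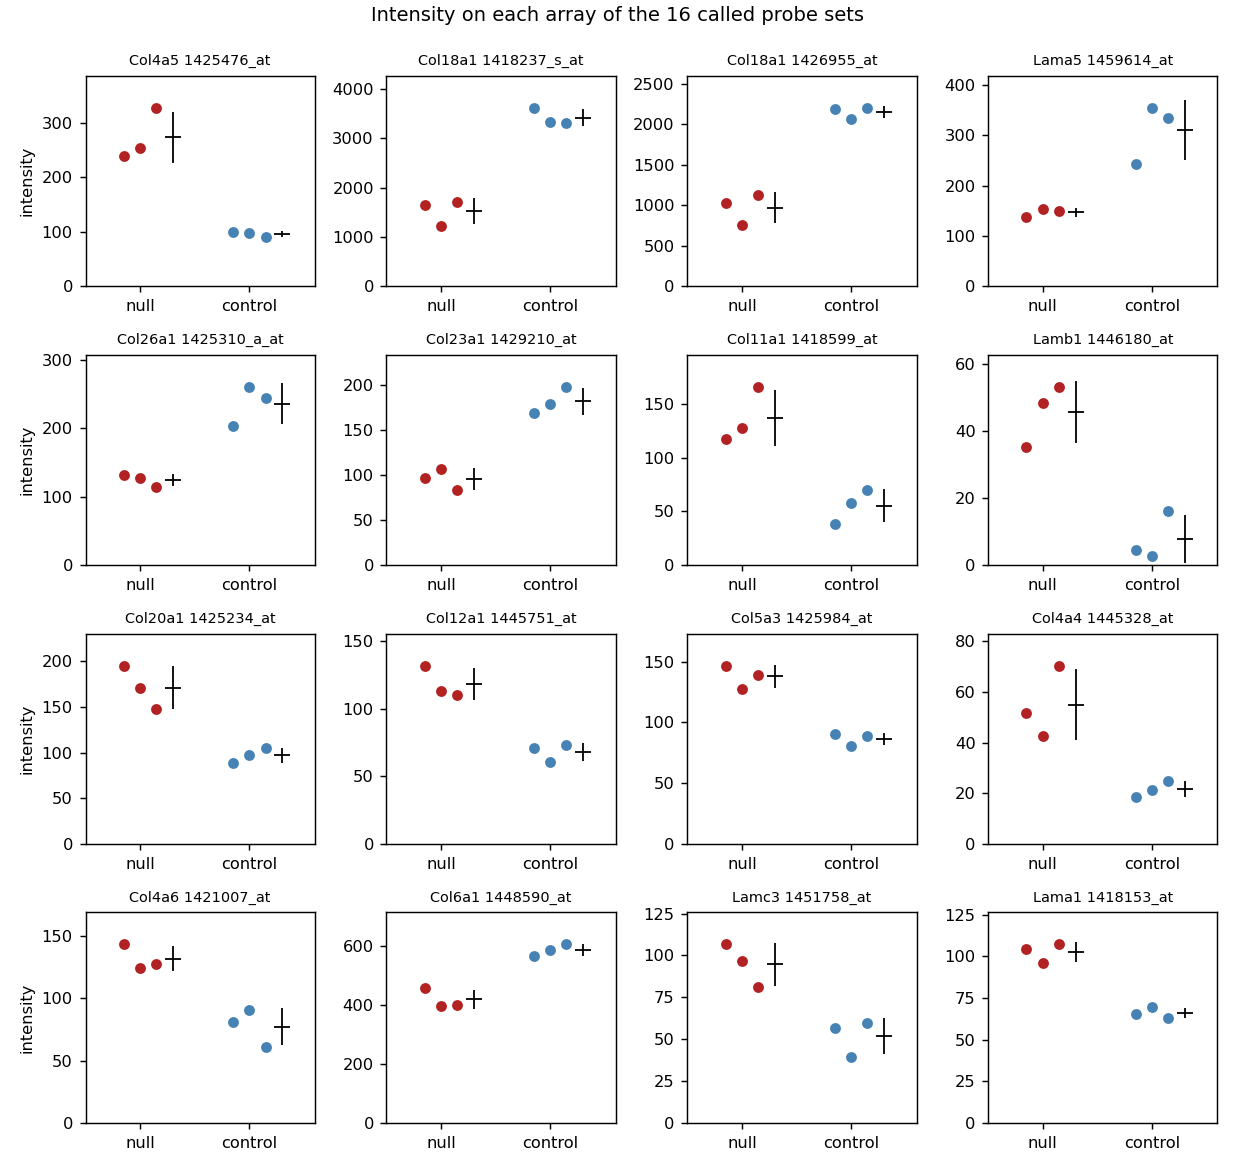
Intensity on each array (vertical axis from 0) of the 16 called probe sets, with null livers left in red (Null_61, Null_1191, Null_1195) and control livers right in blue (Control_8, Control_1192, Control_1193), and the mean and SD of each group beside its points. The groups do not overlap in any panel, and the panels run by adjusted p from Col4a5 (0.000711) to Lama1 (0.0469).

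In the fibrillar class, 2 of 21 probe sets were called (9.52%, against 7.01% of all), both higher, and the median log2 change was 0.31. Col11a1 encodes a chain of collagen XI, a minor fibrillar collagen that nucleates fibrils in cartilage. Its probe set 1418599_at read 117, 128 and 166 in null livers, against 38.8, 57.6 and 69.6 in control livers. Every null liver exceeded every control liver (log2 change 0.96, SE 0.17, limma adjusted p = 0.0106), and the call was kept in all 15 settings that tested it. The dimmer 1449154_at read 67.6, 37.1 and 21.5 in null livers, against -4.33, 5.15 and 13.2 in control livers, without overlap, and was not called (log2 change 0.93, limma adjusted p = 0.062). The mean of both Col11a1 probe sets was called higher (0.94, limma adjusted p = 0.00433).

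Col5a3, a chain of collagen V, was called higher on 1425984_at. It read 147, 128 and 139 in null livers, against 90.4, 80.7 and 88.5 in control livers (log2 change 0.52, limma adjusted p = 0.0297), and the call was lost in 7 of 16 settings. Its other probe set, 1419703_at, read 392, -167 and -116 in null livers and -312, -359 and -503 in control livers. All but 1 of those values lie below 0, where no level can be read.

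Of the interstitial collagens of types I, III and V, no other probe set was called, and Null_61 read highest on many of them. Col3a1 probe set 1427883_a_at read 1994, 1261 and 1304 in null livers, against 634, 974 and 1311 in control livers (log2 change 0.65, limma adjusted p = 0.194). Col1a1 probe set 1455494_at read 736, 216 and 539.6 in null livers, against 179, 250 and 359 in control livers (log2 change 0.74, limma adjusted p = 0.318). Col1a2 probe set 1450857_a_at read 1186, 418 and 540.4 in null livers, against 383, 443 and 494 in control livers (log2 change 0.53, limma adjusted p = 0.379). Null_61 was the highest array for each of them, and for both Col1 genes Null_1191 lay within or below the controls. The second Col1a1 probe set, 1423669_at, had 856, 210.4 and 384 in null livers and 188, 371 and 461 in control livers. Its log2 change was 0.35 with all 6 arrays, -0.15 without Null_61 and -0.49 in the 4 arrays without Null_61 and Control_8.

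Col5a1, another chain of collagen V, read 979.8, 825 and 763 in null livers, against 688, 902 and 756 in control livers on 1416740_at, with a log2 change of 0.13 (limma adjusted p = 0.655). Col5a2, which lies beside Col3a1 on chromosome 1, had changes of 0.26 and 0.27, both uncalled. Null_61 was the highest array in 17 of the 21 fibrillar probe sets, against 36 of all 101 members. Over the 11 probe sets of Col1a1, Col1a2, Col3a1, Col5a1 and Col5a2 with a group mean above the highest array median, the median log2 deviation from the control mean was 1.07 on Null_61, -0.01 on Null_1191 and 0.24 on Null_1195. It was -0.22 on Control_8, 0.08 on Control_1192 and 0.17 on Control_1193. The fibrillar median of 0.31 was 0.10 without Null_61 and 0.02 in the 4 arrays, where that of all probe sets was 0.03.

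**Figure D3:**
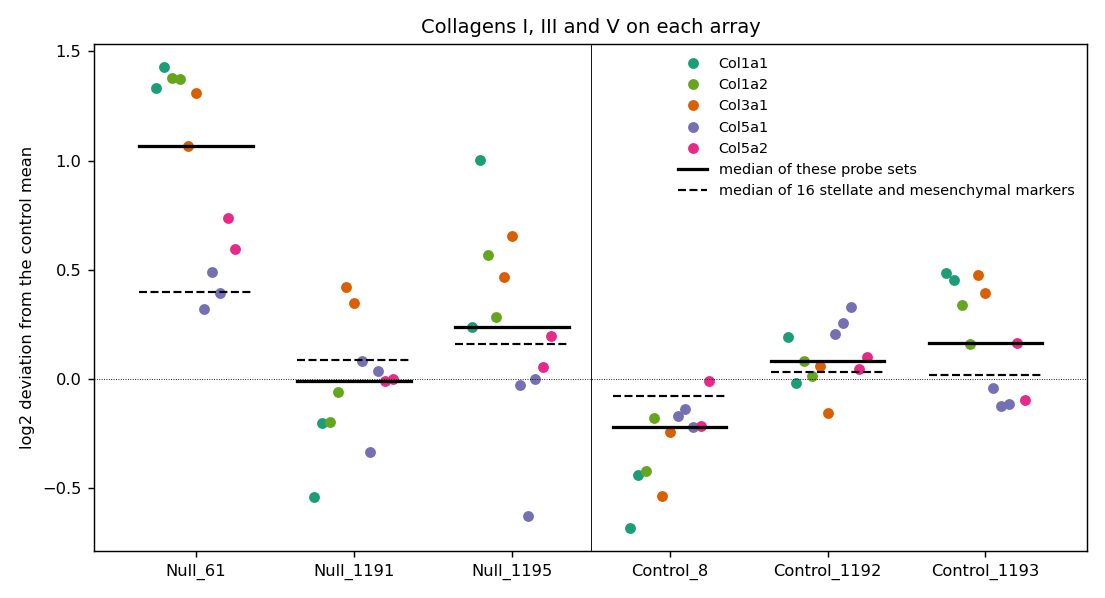
Log2 deviation from the control mean, on each array, of the 11 brighter probe sets of collagens I, III and V, coloured by gene, with null livers left. Solid lines are their medians per array (1.07 on Null_61, -0.01 on Null_1191, 0.24 on Null_1195, against -0.22, 0.08 and 0.17 on the controls) and dashed lines the medians of 16 stellate and mesenchymal markers, of which that on Null_61 is the highest (0.40).

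All 16 listed markers of stellate and other mesenchymal cells were measured, none was called and their median log2 change was 0.27. Single markers were divided over the arrays. Null_61 was the highest array for 6 of them (Pdgfra, Acta2, Tagln, Dcn, Lum and Vim) and the lowest for 3 (Des, Hand2 and Nes), and Null_1195 was the highest for 5. The markers' median deviation was 0.40 on Null_61, 0.09 on Null_1191 and 0.16 on Null_1195, against -0.08, 0.03 and 0.02 on the controls. Their summed intensity was 7185 to 8776 in null livers and 6433 to 6861 in control livers. Their part in the collagen values was not tested, and in whole liver, more cells of a type and more RNA per cell cannot be told apart. With embryo sex as a term in the fit, both Col3a1 probe sets were called higher (limma adjusted p = 0.0134 and 0.0372). In each group, sex sets apart the same array as the run of title numbers does, Null_61 and Control_8. Without Null_61 the Col3a1 changes were 0.45 and 0.50, and neither was called (limma adjusted p = 0.288 and 0.162). In the 4 arrays without Null_61 and Control_8 they were 0.18 and 0.38, also uncalled. Among the remaining fibrillar genes, Col11a2, Col2a1, Col24a1 and Col27a1 had changes between -0.23 and 0.31, none called.

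The other collagens gave 2 probe sets called higher and 3 lower of 46, with a median of 0.14. The share called was 4.35% higher and 6.52% lower, against 1.46% and 5.55% of all probe sets. Among those that fell, Col6a1 encodes a chain of the beaded microfibrils of collagen VI. Its only probe set read 457, 398 and 401 in null livers, against 566, 586 and 605 in control livers, 1.37-fold lower (log2 change -0.46, SE 0.11, limma adjusted p = 0.0434). No null liver reached a control liver, but the call was lost in 9 of 16 settings. The partner chains went the other way without being called. Col6a3 read 607, 348 and 354 in null livers, against 269, 241 and 278 in control livers, without overlap (log2 change 0.63, limma adjusted p = 0.112). Col6a2, the neighbour of Col6a1, read 382, 210.1 and 232 in null livers, against 144, 180.3 and 215 in control livers on 1452250_a_at (log2 change 0.51, limma adjusted p = 0.224). Null_61 was the highest array for both partners. Col6a3 was called higher with the run of title numbers as a block (limma adjusted p = 0.0227). Col6a4 and Col6a5, chains that replace the Col6a3 chain in other tissues, were not called.

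Col26a1, which encodes a small collagen described in testis and ovary, read 131, 127 and 115 in null livers, against 203, 261 and 244 in control livers on 1425310_a_at. Those groups were well apart (1.71-fold lower, limma adjusted p = 0.00714), and the call was kept under all 16 settings. The dim second probe set had a change of 0.25 and was not called. Col23a1 encodes a membrane-spanning collagen. Its probe set 1429210_at read 96.6, 107 and 83.3 in null livers, against 169, 179 and 198 in control livers (log2 change -0.75, limma adjusted p = 0.00748), a call kept under all 16 settings. The other Col23a1 probe sets leaned the other way. On 1429209_at null livers read 122, 131 and 132 and control livers 93.6, 98 and 107, without overlap (log2 change 0.29, limma adjusted p = 0.187), and 1440911_at had a change of 0.55 (limma adjusted p = 0.181).

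The 2 called higher were Col20a1 and Col12a1, both of the group of collagens that attach to fibrils. Col20a1 probe set 1425234_at read 195, 170.1 and 148 in null livers, against 88.5, 97.2 and 105 in control livers (log2 change 0.65, limma adjusted p = 0.0184). Col12a1 probe set 1445751_at read 132, 113 and 110.1 in null livers, against 71.2, 60.3 and 72.8 in control livers (log2 change 0.59, limma adjusted p = 0.0233). Neither pair of groups overlapped. Each gene has 3 further probe sets, none called, and changes of both signs among them. The calls were lost in 5 of 16 settings for Col20a1 and in 6 of 15 for Col12a1.

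Col9a2 and Col14a1 were the brightest uncalled genes of the class. Col9a2, a cartilage collagen that decorates fibrils, read 556, 858 and 873 in null livers, against 735, 872 and 1028 in control livers (log2 change -0.21, limma adjusted p = 0.574). Null_61 was the lowest of the 6 arrays there. Col14a1, a fibril-associated collagen of fibroblasts, read 611, 487 and 538 in null livers, against 408, 487 and 530.1 in control livers on 1427168_a_at (log2 change 0.19, limma adjusted p = 0.476). Its dim probe set 1453931_at read 92.6, 33.8 and 33 in null livers, against 64, 93.8 and 85.2 in control livers. Null_1191 and Null_1195 lay below all controls and Null_61 did not. The change was -0.47 with all arrays (limma adjusted p = 0.329), and without Null_61 it was called lower (-0.78, limma adjusted p = 0.0165). No probe set was called of the basement membrane anchor Col7a1, the transmembrane genes Col13a1, Col17a1 and Col25a1, the network formers Col8a1, Col8a2 and Col10a1, or the fibril-associated Col9a1, Col9a3, Col16a1, Col19a1 and Col22a1.

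Among laminins, 3 of 19 probe sets were called higher and 1 lower, and the median log2 change was 0.28. The share called was 21.1%, against 7.01% of all probe sets. Of the alpha chains, Lama5, the broad alpha chain of mature basement membranes, was called lower on 1459614_at. It read 137, 154 and 150.2 in null livers, against 243, 355 and 335 in control livers, 1.9-fold lower (log2 change -0.92, SE 0.15, limma adjusted p = 0.00659). The groups were far apart and the call was kept under all 16 settings. The other Lama5 probe sets did not show it. On 1427009_at null livers read 208, 205 and 204 and control livers 171, 214 and 214 (log2 change 0.04, 95% interval -0.24 to 0.32), and 1427010_s_at had a change of 0.27 (95% interval -0.06 to 0.59).

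Lama1, the alpha chain of the earliest embryonic basement membranes, has a single probe set, which read 105, 95.9 and 107 in null livers, against 65.6, 69.4 and 63 in control livers. The groups did not overlap (log2 change 0.46, SE 0.11, limma adjusted p = 0.0469), but the values are near or below the array medians and the call was lost in 12 of 15 settings. Lama4, the alpha chain of vessel walls, had changes of 0.28 and 0.56, the second without overlap, and was not called. Lama2, the alpha chain of muscle, and Lama3, that of epithelia, were dim and not called.

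Of the beta chains, Lamb1 was called higher on the dim probe set 1446180_at, with 35.4, 48.3 and 53.3 in null livers and 4.53, 2.87 and 16.2 in control livers (log2 change 0.97, SE 0.18, limma adjusted p = 0.0136). The call was lost in 4 of 15 settings. The brightest Lamb1 probe set, 1424114_s_at, read 264, 433 and 442 in null livers, against 308, 344 and 423 in control livers. Those groups overlapped, and the change was 0.05 (95% interval -0.40 to 0.51, limma adjusted p = 0.907). The other beta chains, Lamb2 and Lamb3, were not called.

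Of the gamma chains, Lamc3 was called higher on 1451758_at, with 107, 96.9 and 81 in null livers and 56.8, 39.4 and 59.4 in control livers (log2 change 0.60, limma adjusted p = 0.0444). The groups did not overlap, and the call was lost in 12 of 15 settings. Lamc1, the gamma chain of most laminins, was not called. Its probe sets had changes of opposite sign, 0.34 on 1423885_at and -0.23 on 1423886_at (limma adjusted p = 0.342 and 0.676). Probe set 1423885_at read 318, 214 and 343 in null livers, against 179, 225 and 259 in control livers. Probe set 1423886_at read 117, 255 and 245 in null livers, against 184, 225 and 310 in control livers, with Null_61 the lowest array.

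The calls fell in 15 genes, 10 with a probe set called higher and 5 with one called lower. In 12 of them another probe set of the gene was not called, and no gene was called both ways. Taking only the brightest probe set of each gene, 10 of 52 genes were called, 5 in each direction (19.2%, against 9.4% of all 18193 genes). By the mean of each gene's probe sets, 6 genes were called: Col11a1, Col4a5, Lama1 and Lamc3 higher, and Col18a1 and Col6a1 lower. Across the 16 settings, 7 of the 16 called probe sets were called in every setting that tested them. These were both of Col18a1 and 1 each of Col4a5, Lama5, Col26a1, Col23a1 and Col11a1. The settings include neither the mean of a gene's probe sets nor a 2-fold minimum, which left 1 member called higher and 2 lower.

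Genes that build, bind and remodel this matrix were taken from fixed lists, each gene standing as its brightest probe set. Of 25 genes of collagen processing, 4 rose and 1 fell, with a median change of 0.06, and 1.56% of all genes were called higher and 7.85% lower. Plod2, which hydroxylates collagen lysines for stable crosslinks, read 180.4, 204 and 183 in null livers, against 63.9, 92.8 and 107 in control livers (log2 change 0.90, limma adjusted p = 0.00857). Pcolce, an enhancer of procollagen C-terminal cleavage, read 378, 342 and 398 in null livers, against 238, 213 and 230.2 in control livers (1.56-fold higher, limma adjusted p = 0.0106). Its relative Pcolce2 was 1.61-fold higher and Crtap, a partner of the prolyl 3-hydroxylase, 1.51-fold higher. Bmp1, the protease that makes that cleavage, fell 1.55-fold, with 259, 279 and 356 in null livers and 409.5, 529 and 498 in control livers (limma adjusted p = 0.0409). The groups were apart for each of these genes, and of the 5 the Plod2 call was kept in all 16 settings. The calls of Pcolce, Bmp1, Crtap and Pcolce2 were lost in 1, 7, 8 and 9 of 16.

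Of 16 basement membrane partners, 2 were called higher (12.5%, against 1.56% of all genes) and none lower. Changes were above 0 in 12 and below 0 in 4, with a median of 0.17. Nid2, a linker between laminin and collagen IV, read 291, 160.3 and 186 in null livers, against 109, 102 and 86.9 in control livers (log2 change 0.86, limma adjusted p = 0.0311). Its brighter relative Nid1 read 485, 356 and 524 in null livers, against 612, 756 and 643 in control livers, without overlap. Nid1 was not called (log2 change -0.54, limma adjusted p = 0.0874) and was named after its values were seen. Frem2, an epithelial basement membrane protein, read 142, 103 and 133 in null livers, against 65.9, 46.2 and 43.9 in control livers (log2 change 0.91, limma adjusted p = 0.00793). Of 16 receptors, 2 fell (12.5%, against 7.85% of all genes). Ddr1, a collagen receptor kinase, read 205, 167 and 264 in null livers, against 393, 405 and 297 in control livers, 1.63-fold lower (limma adjusted p = 0.049). Itgb4, the integrin beta chain that binds laminin at hemidesmosomes, read -4.35, 4.79 and 7.15 in null livers, against 91.6, 71.5 and 63.5 in control livers (log2 change -1.58, limma adjusted p = 0.000402). It lies below the array medians in both groups and was named after its values were seen. The Ddr1 call was lost in 10 of 16 settings, those of Nid2 and Frem2 in 4 of 16 and 1 of 15, and that of Itgb4 in none of 15.

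Of 20 genes of other interstitial matrix proteins, 4 fell and 1 rose, with a median of -0.15. Calls over all genes also lay mostly on the lower side (7.85% lower, 1.56% higher). Vtn, the plasma protein vitronectin, read 2943, 2694 and 2978 in null livers, against 6982, 6167 and 6927 in control livers, 2.31-fold lower (limma adjusted p = 6.59e-05). Fn1, fibronectin, read 3960.4, 4217 and 4656 in null livers, against 7371, 7563 and 8183 in control livers, 1.8-fold lower (limma adjusted p = 0.000617). Both are secreted in quantity by hepatocytes. Emilin1 and Mfap2, components of elastic microfibrils, fell 1.84-fold and 1.49-fold, and Postn, a collagen-binding protein of fibroblasts, was 1.64-fold higher. Of 18 turnover genes, the collagenase Mmp8 fell 1.96-fold, the gelatinase Mmp9 1.44-fold and the membrane protease Mmp14 1.67-fold, none rose and the median was 0.01. The calls of Vtn, Fn1 and Mmp8 were kept in all 16 settings, that of Postn was lost in 6, those of Emilin1, Mfap2 and Mmp9 in 7 each, and that of Mmp14 in 8.

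**Figure D4:**
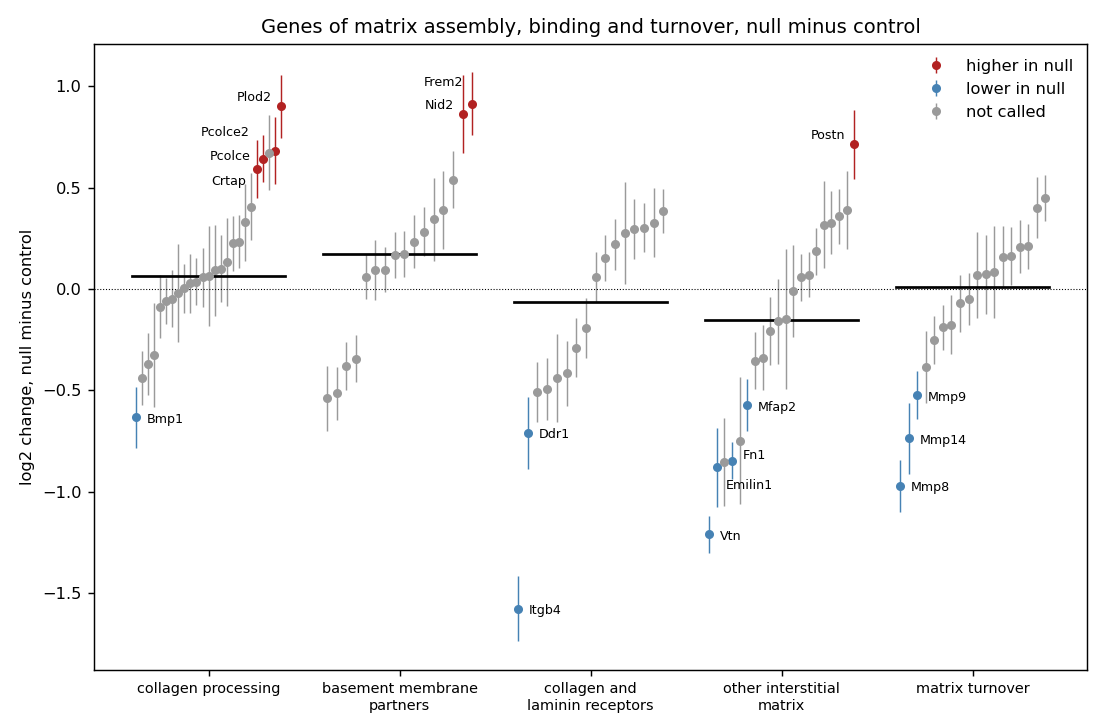
Log2 change, null minus control, of genes of collagen processing (25), basement membrane partners (16), collagen and laminin receptors (16), other interstitial matrix (20) and matrix turnover (18), with bars of 1 standard error and lines at the list medians. Named genes were called, those above 0 higher and those below 0 lower in null livers, with Itgb4 lowest (-1.58) and Frem2 highest (0.91).

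The labelled tissue was checked on its markers. The 4 hepatocyte markers measured were well above the array medians in both groups. Alb (log2 change 0.02, limma adjusted p = 0.928) and Afp (-0.06, limma adjusted p = 0.636) were not called, with Alb averaging 10651 ± 459.9 in null livers and 10532 ± 269.7 in control livers (SD, n = 3 each). Ttr fell 1.37-fold and Apoa1 3.83-fold, Apoa1 with 2694, 2624 and 4052 in null livers and 11593, 11956 and 11936 in control livers (limma adjusted p = 9.24e-05). The 4 summed to 32217 to 33484 in null livers and 44346 to 45124 in control livers, a difference that lies mostly in Apoa1 and Ttr. Alb, Afp and the control values of Apoa1 lie close below the highest intensity of an array, 12298.5 to 12608.4. Whether intensity still follows the RNA level there was not tested, so the values of Alb and Afp do not show that their RNA was unchanged. Of 13 endothelial markers, Kdr, Tek and Stab2 fell, and the list's median log2 deviations were -0.01, -0.39 and -0.35 in null livers, against 0.03, 0.02 and -0.09 in control livers. Of 6 macrophage markers, Adgre1, Clec4f and Timd4 rose (median 0.58), and of 5 platelet and megakaryocyte markers Pf4, Itga2b and Gp1bb fell (median -0.61). Of 7 mesothelial markers, only Wt1 was called, higher and dim, and none of 5 biliary or 3 erythroid markers was called. Over all genes, 1.56% were called higher and 7.85% lower. Wt1 and Tek were named after their values were seen, and their calls were lost in 8 and 10 of 15 settings. Of the other called markers Apoa1 and Stab2 kept their call in all 16, and the rest lost it in 4 to 8. Summed intensities overlapped between groups for the mesothelial, biliary and erythroid lists. These markers moved beside the collagen and laminin values, and their part in those values was not tested.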

How the data were processed

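Total RNA of 6 fetal mouse livers was hybridised to 1 array each, with groups taken from the strain labels. The deposited values are intensities per probe set on a linear scale. The sources used here do not give the summarisation of probes, the background step or the software. Negative values made up 0.909% to 1.34% of an array. Array medians on the log2 scale differed by 0.0877, under a tolerance of 0.2, so no normalization was added. Tests used log2(value + 32) with negative values raised to 0. The table's 64 control probe sets, out of 45101, were dropped and no filter on dim probe sets was used, so all 101 members were tested. Symbols came from the platform annotation (34945 probe sets with 1 symbol, 932 with several, 9160 with none), and all 101 members matched RefSeq by Entrez number. Null and control arrays, 3 each, entered limma 3.58.1 under R 4.3.3 (lmFit and eBayes with an intensity trend, two-sided, Benjamini-Hochberg adjustment over 45037 probe sets, called below 0.05). The fit was tested on simulated data. The number of arrays limits the precision, and no depth applies.

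The members, the lists of related genes and the markers were chosen with earlier results of these data known. Every member gene is named. Called members and the brightest 3 probe sets of each class are described in full, and from the other lists the called genes whose brighter group is above the median of all probe sets, with exceptions stated. Alternatives were quantile normalization, centred medians, pseudocounts of 1 and 100, a filter on dim probe sets, no trend, array weights, the run of title numbers as a block, the 4 arrays of the higher run, embryo sex as a term, a 2-fold minimum, the mean of a gene's probe sets and leaving out each array. The 16 settings are these without the 2-fold minimum and the mean of a gene's probe sets.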

Additional observations from a re-analysis of the deposited data

How the results depend on the processing

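No paired analysis was possible because the title numbers are shared by no null and control array. Members called higher numbered 10, but 4 in the 4 arrays without Null_61 and Control_8, 4 of the 55 tested above the median, 1 with a 2-fold minimum, and 2 to 7 when 1 array was left out. Members called lower numbered 6, but 2 with a 2-fold minimum, and 5 to 7 with 1 array left out. Member genes called higher numbered 10 by probe set and 4 by the mean of probe sets, and those called lower 5 and 2. Related genes called higher numbered 11 of 149, but 18 with the block for the run of title numbers, 17 after quantile normalization, 6 with embryo sex as a term, 0 with a 2-fold minimum and 1 to 12 with 1 array left out. Those called lower numbered 18, but 28 with array weights, 31 with the block, 8 after quantile normalization, 9 with embryo sex, 3 with the 2-fold minimum and 6 to 21 with 1 array left out. The share of all probe sets called moved too. It was 1.46% higher and 5.55% lower in the fit reported, 4.14% and 8.19% with the block, and 2.62% and 4.75% after quantile normalization. With array weights it was 3.46% and 7.74%, and with embryo sex 0.813% and 4.23%. Whether the related genes moved more than all probe sets was not tested. Of the 29 related genes called, 7 kept their call in every one of the 16 settings that tested them. The 2-fold minimum is not among those settings. Directions changed for some uncalled probe sets. In the 4 arrays the change became -0.056 for Col5a1 1416740_at, -0.49 for Col1a1 1423669_at, -0.023 for Col1a2 1423110_at and -0.084 for Col5a2 1422437_at. Col1a1 1423669_at was also -0.15 with array weights and, with 1 array left out, -0.15 (without Null_61) to 0.79. After quantile normalization Col4a1 1452035_at became 0.063 and Col4a2 1424051_at 0.094. Col4a2 1424051_at was 0.059 with embryo sex and -0.26 (without Null_61) to 0.25 (without Null_1191) with 1 array left out. Lamb1 1424114_s_at was -0.0092 with embryo sex and -0.063 (without Null_1195) to 0.28 (without Null_61) with 1 array left out. Lamc1 1423886_at ran from -0.39 to 0.080 (without Null_61). No called member probe set changed direction under the 16 settings. Some uncalled probe sets gained a call in a setting. Lama4 1424808_at did with array weights (limma adjusted p = 0.0458) and Col4a3 1450224_at with the block (limma adjusted p = 0.0463). Col6a2 1452250_a_at did with embryo sex (limma adjusted p = 0.0405) and Col1a1 1455494_at without Null_1191 (limma adjusted p = 0.0499). Col11a1 1449154_at did with array weights, the block, embryo sex and without Null_1195. By the mean of a gene's probe sets, Col23a1 had a change of 0.030 (limma adjusted p = 0.894), against -0.75 for its called probe set. The cause of these changes was not tested. With 3 arrays a group, and both group means of 43 of the 101 members below the highest array median, small changes of dim probe sets may have been missed.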
